A study of Bos taurus with 8 samples.

Results

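The 8 dominant follicles of the series were grouped by the measured level of CYP19A1, the gene for aromatase, in their granulosa cells. The 4 follicles with the highest signal formed an aromatase-high group, growing 3, growing 4, atretic 1 and atretic 4. The 4 with the lowest formed an aromatase-low group, growing 1, growing 2, atretic 2 and atretic 3. All 8 of the 8 follicles hybridised were therefore used. Each group held 2 growing and 2 atretic follicles, so that the phase of growth was balanced between the groups. Granulosa cells had been scraped from single follicles of more than 9 mm in ovaries of Holstein dairy cattle collected at slaughter, and neither the animals' stage of the estrous cycle nor the animal behind each follicle was given in the sources used here. The growing or atretic phase of each follicle came from the DNA content of part of its cells, read by flow cytometry. Amplified RNA of 1 growing and 1 atretic follicle was hybridised on each array, and each pair of follicles was run on 2 arrays with the dyes exchanged, which gave 8 arrays. The sources used here name no hormone or drug treatment in either group.

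Aromatase converts androgens, which the theca layer supplies, to estradiol, and its gene marks the granulosa cells of follicles that make estrogen. Follicle-stimulating hormone drives CYP19A1 through cyclic AMP in these cells, and the receptor for luteinizing hormone appears on them as a follicle becomes dominant. Granulosa cells also release inhibins, activins and follistatin, which tune the pituitary's output of follicle-stimulating hormone, and they stop dividing as they luteinize or die as the follicle regresses.

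The grouping was a measurement and not a treatment. CYP19A1 was therefore left out of every count of probes or genes that differed between the groups, and its own values are a description. Its 3 probes stayed in the adjustment of p-values and in the probe counts for phase and for the interaction. On the scale used for ranking, the log2 of the background-subtracted intensity of its brightest probe, the level was 15.83 in growing 3, 14.59 in growing 4, 15.87 in atretic 1 and 15.22 in atretic 4. It was 11.38 in growing 1, 7.73 in growing 2, 9.06 in atretic 2 and 11.96 in atretic 3. The last follicle inside the high group was thus growing 4 at 14.59, and the first outside it was atretic 3 at 11.96. The grouping probe was brighter than the negative control spots on all arrays and at the scanner limit on none, and both other CYP19A1 probes gave the same 2 groups. In growing 2 the gene lay close to those spots, with normalised values between 7.02 and 7.43 for the 3 probes. The limit that 95% of the negative controls stayed under was 7.25 and 7.45 in its 2 channels. Over all channels this limit, used for every statement on the negative controls, was 7.11 to 7.48. It was 7.03 for control levels averaged over the 8 follicles.

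**Figure D1:**
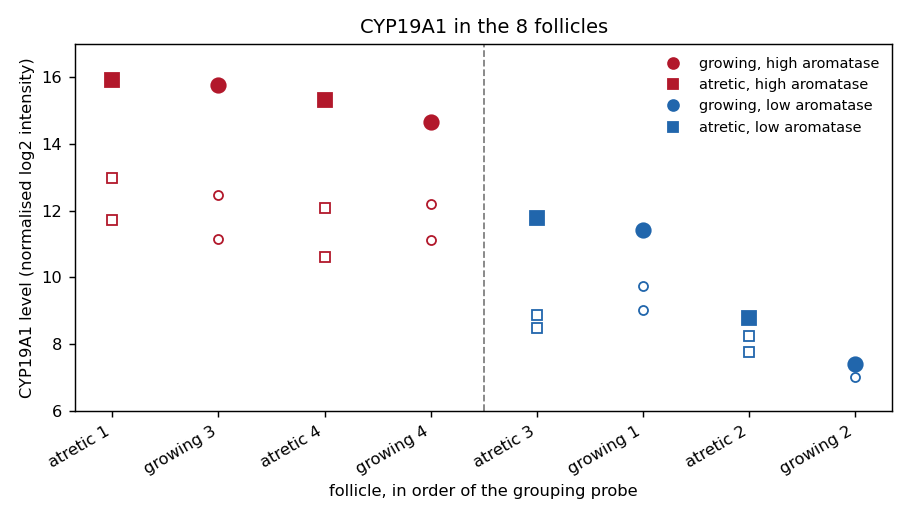
Normalised CYP19A1 level (log2 intensity, vertical axis) of each follicle in the order of the grouping probe (horizontal axis). Filled symbols are the brightest probe and open symbols the other 2, with 1 point per follicle as the mean of its 2 arrays, and the dashed line parts the 4 aromatase-high from the 4 aromatase-low follicles at a gap between growing 4 and atretic 3.

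The arrays carried 43794 bovine probes, of which 35491 had a mean level of at least 7 on the log2 scale and were kept. They named 13414 genes, each represented by its brightest probe. Between 54.7% and 66.4% of the probes of a follicle were brighter than the negative controls, and the ratios of the dye-swapped arrays of a pair correlated over probes at 0.619 to 0.778. The follicle growing 2 stood apart from the other 7. Its mean correlation with them was 0.918, where the others lay between 0.931 and 0.95, and the second principal component, with 23.4% of the variance, held it at -99.3 and the others between 5.93 and 30.6. It carried KRT8, an epithelial keratin, at 15.84, PTX3, a matrix protein of the cumulus, at 11.60 and TIMP1 at 15.01. Where leaving it out changed a call or moved a value by more than 1.5 times, both values are given. The first component, with 32.8% of the variance and computed without CYP19A1, placed the aromatase-high follicles between 8.27 and 65.3 and the aromatase-low follicles between -65.0 and -3.62, with growing 2 at the upper end of the low group.

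The label granulosa was checked against marker genes. GATA4 was at 13.90 to 14.72 in the low and 14.07 to 14.46 in the high group. INHA, SERPINE2 and FSHR were measured on all arrays. FOXL2 was at 7.30 to 9.16 over all follicles. WT1 was at 7.18 to 7.55, with 5 of 8 high and 4 of 8 low channels brighter than the negative controls. DSP, LHX9 and LGR5 were brighter than those controls on at most 4 of the 16 channels. Of the 14 leukocyte markers, CSF1R, CD14, LYZ, CD79A and ITGB2 were at that level too, whereas PTPRC was brighter on all 16 channels and CD68 and TYROBP on 8 and 7 of the low but 4 and 3 of the high group's 8. PECAM1, TIE1 and FLT1 of 12 endothelial markers were also brighter on at most 4 channels. So were GDF9, NLRP5, ZAR1 and ZP4 of 10 oocyte markers, whereas FIGLA, OOEP and ZP3 were brighter on 5 or 6 of 8 channels in each group. The summed linear intensity of the leukocyte markers was 1999 to 2425 in the high and 2549 to 3015 in the low group, and that of the endothelial markers was 1850 to 2062 against 2506 to 3984. Both sums were lower in all high follicles, but without KDR, described below, the endothelial sum was 1741 to 1890 in the high and 1841 to 2045 in the low group, which overlap. The oocyte markers summed to 1468 to 1531 in the high and 1356 to 1437 in the low group, without overlap. The 10 smooth muscle and pericyte markers summed to 6784 to 8430 in the high and 7325 to 12683 in the low group, or 8893 to 12683 without growing 2, when the ranges parted. MYH11, a smooth muscle myosin, was at 11.88 to 12.28 in growing 1, atretic 2 and atretic 3, at 7.58 in growing 2 and at 7.58 to 9.93 in the high group. For the 17 theca markers the sum was 31937 to 110020 in the high and 14312 to 26509 in the low group, or 14312 to 15810 without growing 2. Without STAR, CYP11A1, HSD3B1 and LHCGR, which granulosa cells of large follicles also express, the remaining 13 gave 7073 to 13869 against 8808 to 17920. The low range was 8808 to 10710 without growing 2. The 14 luteal markers, which include those genes, summed to 30517 to 105367 in the high group. In the low group they gave 11121 to 84197, or 11121 to 12699 without growing 2. The 22 granulosa markers summed to 200889 to 223236 in the high and 96966 to 258107 in the low group. Without growing 2 the low range was 96966 to 142037, below all high follicles. Linear sums follow the brightest genes. INHA, SERPINE2 and GJA1 were each lower in growing 1, atretic 2 and atretic 3 than in every high follicle. Of the 20 granulosa markers that passed the intensity filter, 12 had a higher and 8 a lower mean in the high group. Their median difference was 0.05, or 0.003 without growing 2. CYP17A1, the theca enzyme that makes androgens, was at 9.11 in growing 3, 7.58 in growing 4, 9.49 in atretic 1 and 7.16 in atretic 4, against 7.70 in growing 1, 9.10 in growing 2, 7.40 in atretic 2 and 7.34 in atretic 3, so that the groups overlapped, and its difference of 0.45 was 0.83 without growing 2. CYP17A1 was thus highest in atretic 1, which also had the highest LHCGR, HSD3B1 and STAR of all follicles. It was nearly as high in growing 2, where LHCGR was lowest. The authors removed 1 atretic sample from their qRT-PCR for its high CYP17A1, and its match to the follicles here was not given. The part of other cell types in the differences below was not tested, and in such bulk samples fewer cells of a type and less RNA per cell cannot be told apart.

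The question was which genes followed aromatase over these follicles, and how far that held in both phases. LHCGR, CYP11A1, CCND2, GJA1 and IGFBP4 were higher in all aromatase-high follicles, by 1.51 to 3.45 on the log2 scale, and MMP11, IL18, VNN2, KDR and ADAMTS1 were lower in all of them, by -2.67 to -4.27, each past the test. Genes of oxidative phosphorylation had higher means in both phases and genes of mitosis mainly in growing follicles. With phase in the same limma fit, 291 of 35488 probes (0.82%) passed an adjusted p of 0.05, 169 with a higher and 122 with a lower level in the aromatase-high follicles. The higher share of 58.1% was 38.9% of 131 probes with loess alone and 38.6% of 114 with channels only centred on the median. At the level of genes, 128 of 13413 passed (0.954%), 87 of them higher (0.649%) and 41 lower (0.306%). The 4 high and the 4 low follicles did not overlap in 1063 genes (7.93%), of which 626 were higher (4.67%) and 437 lower (3.26%) in the high group. The median difference over all genes was -0.01 on the log2 scale. The number of passing probes moved with single follicles. It was 0 without growing 3, growing 4, atretic 1 or atretic 2, 6 without growing 1, 89 without atretic 4, 400 without atretic 3 and 811 without growing 2. None of the genes named below as passing was therefore called when any of the first 4 was left out. With the hybridisation pair as a fixed term, which leaves only pairs 1 and 3 to inform the difference, 0 probes passed. These p-values say how closely a probe followed the grouping over 8 follicles, and since the animal behind each follicle was not given they measure only the spread between these follicles.

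Pairs 1 and 3 each held a high and a low follicle on the same arrays, atretic 1 with growing 1 and growing 3 with atretic 3, so that phase ran in opposite directions in them, and each gave a difference within arrays. Pairs 2 and 4 held 2 low and 2 high follicles and gave no such value. In the same fit no probe passed between atretic and growing follicles, with 2844 at an unadjusted p under 0.05 (8.01%) and a smallest adjusted p of 0.292, and 500 genes differed at least 2-fold between the phases, beside 867 between the aromatase groups that had been formed from these data.

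Receptors for the gonadotropins came first among the roles examined. LHCGR, the luteinizing hormone receptor, was at 10.51 in growing 3, 9.64 in growing 4, 13.05 in atretic 1 and 11.25 in atretic 4 in the aromatase-high follicles. It was at 8.20 in growing 1, 6.73 in growing 2, 7.68 in atretic 2 and 8.05 in atretic 3 in the aromatase-low follicles. Every high follicle lay above every low follicle, and the level was highest in atretic 1. The difference was 3.45 ± 0.55 on the log2 scale (SE, n = 4 and 4), a 10.9-fold higher intensity (adjusted p = 0.0432), and it was 4.84 in pair 1 and 2.46 in pair 3. The other LHCGR probe differed by 1.45. For the brightest probe, 7 of 8 channels of the low group were brighter than the negative controls. FSHR, the receptor for follicle-stimulating hormone, was at 9.49 to 11.35 in the high and 7.83 to 10.39 in the low group. Its ranges overlapped, with growing 2 lowest at 7.83, and the difference of 0.72 ± 0.62 did not pass (adjusted p = 0.719) and was 0.07 without growing 2 (adjusted p = 0.973).

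Of the 21 measured genes of gonadotropin receptors and cyclic AMP signalling, LHCGR passed upward and RGS2, which dampens G-protein signals, downward. Over all genes, 0.649% passed upward and 0.306% downward. RGS2 was at 7.56 to 7.75 in the high group and at 9.81 in growing 1, 10.22 in growing 2, 8.95 in atretic 2 and 8.49 in atretic 3 in the low group, a difference of -1.72 ± 0.29 (adjusted p = 0.0499). Its high follicles lay within a narrow band below all low follicles and just above the limits of the negative controls. PDE7B, which breaks down cyclic AMP, lay at 6.90 to 7.47 against 7.73 to 8.64 without overlap, a difference of -0.87 ± 0.16 that did not pass (adjusted p = 0.0590) and was -0.92 without growing 2 (adjusted p = 0.0468). Its high group lay near the limits of the negative controls, 7.11 to 7.48 over the channels. PDE8A, of the same enzyme class, differed by 0.73 ± 0.25 with overlap. The median of the list was -0.01, the same as over all genes, and it was 0.02 without growing 2.

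The enzymes of the first steps from cholesterol to progesterone had higher means with aromatase. CYP11A1, which makes pregnenolone from cholesterol, was at 15.16 in growing 3, 15.16 in growing 4, 15.34 in atretic 1 and 12.56 in atretic 4. In the low group it was at 11.87 in growing 1, 11.76 in growing 2, 11.05 in atretic 2 and 11.37 in atretic 3, all below the high follicles, of which atretic 4 was the lowest by a wide gap. The difference was 3.04 ± 0.52 (8.23-fold, adjusted p = 0.0499, and 0.0507 without growing 2). HSD3B1, which makes progesterone from pregnenolone, was at 12.70 in growing 3, 11.98 in growing 4, 14.88 in atretic 1 and 13.42 in atretic 4, against 10.08 in growing 1, 10.84 in growing 2, 7.81 in atretic 2 and 10.97 in atretic 3. Its groups did not overlap, and it was highest in atretic 1 and lowest in atretic 2. The difference of 3.32 ± 0.83 did not pass (adjusted p = 0.118).

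STAR, which brings cholesterol into the mitochondrion, was at 11.19 in growing 3, 11.05 in growing 4, 13.98 in atretic 1 and 11.91 in atretic 4, against 9.70 in growing 1, 11.64 in growing 2, 10.04 in atretic 2 and 9.31 in atretic 3. Growing 2 was above growing 3 and growing 4, so the groups overlapped, and the difference of 1.86 ± 0.73 (adjusted p = 0.308) was 2.53 without growing 2. POR, the reductase that passes electrons to the cytochromes P450 including aromatase, was at 8.59 to 9.60 against 7.72 to 8.38 without overlap, a difference of 0.96 ± 0.16 (adjusted p = 0.0494, and 0.0507 without growing 2). HSD17B1, which turns estrone into estradiol, was at 11.20 and 10.47 in growing 3 and growing 4 but at 8.69 and 8.12 in atretic 1 and atretic 4, beside 7.70 to 8.28 in the low group. It was thus high in the growing members of the high group and near the low group in the atretic ones, and the test of that interaction did not pass (adjusted p = 0.381). NR5A2, a nuclear receptor that drives CYP19A1 in granulosa cells, was at 13.00 to 15.00 against 11.82 to 13.44 with overlap. Of the 23 measured genes of steroid synthesis, 15 had a higher mean in the high group, beside 48.4% of all genes. Of the 23, 2 passed upward, beside 0.649%, and 0 downward, beside 0.306%, and the list's median was 0.20.

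**Figure D2:**
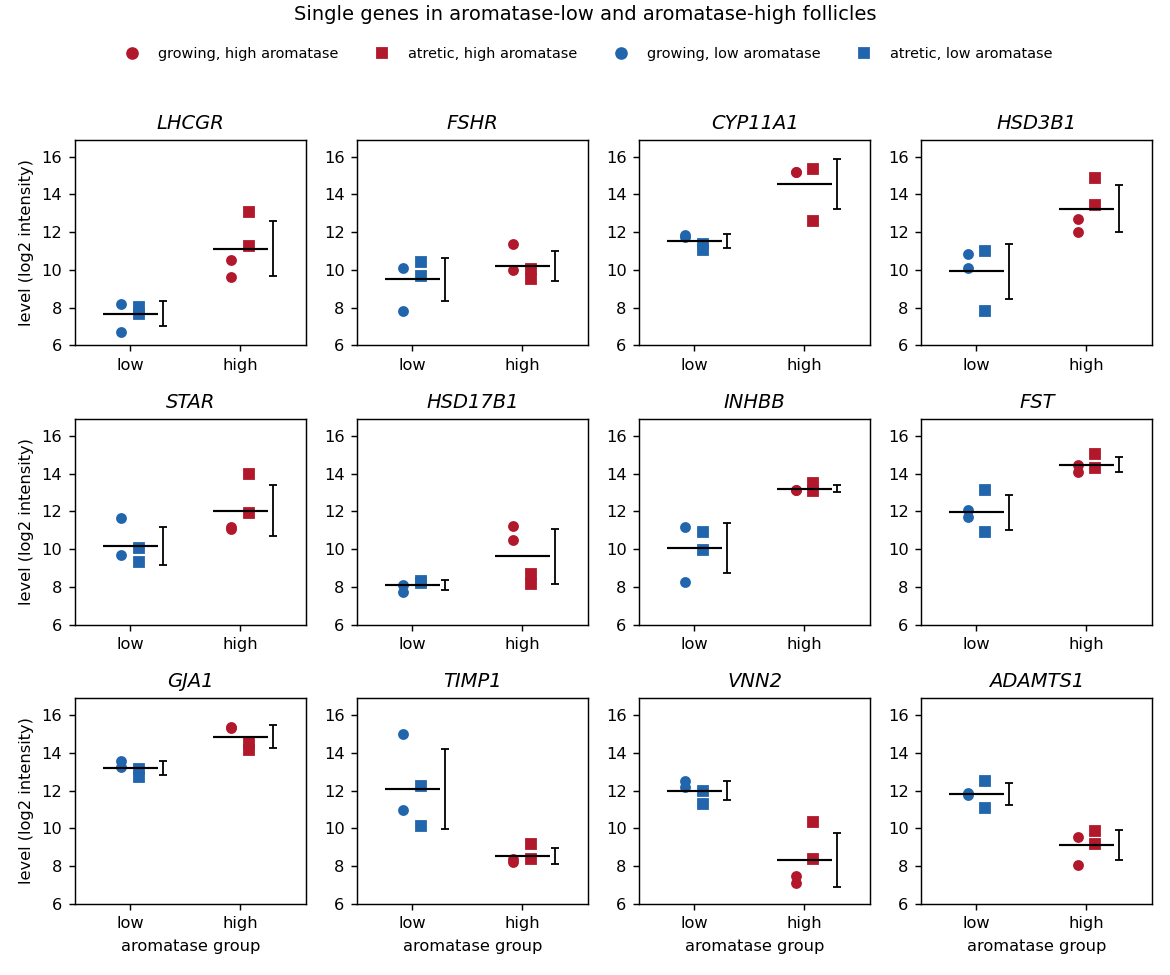
Level (log2 intensity, vertical axis) of 12 genes in the aromatase-low and aromatase-high groups (horizontal axis), with 1 point per follicle, circles for growing and squares for atretic follicles, lines for group means and bars for the SD of 4 follicles. LHCGR, CYP11A1, HSD3B1, INHBB, FST and GJA1 lie higher and TIMP1, VNN2 and ADAMTS1 lower in all high follicles, whereas FSHR, STAR and HSD17B1 overlap.

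The hormones of the inhibin and activin family had higher means in the high group, and none of their genes passed with all 8 follicles. INHBB, the beta B subunit of activin and inhibin, was at 13.15 in growing 3, 13.10 in growing 4, 13.50 in atretic 1 and 13.07 in atretic 4. It was at 11.19 in growing 1, 8.26 in growing 2, 9.94 in atretic 2 and 10.92 in atretic 3. The high follicles lay close together and above all low follicles, of which growing 2 was the lowest. The difference was 3.13 ± 0.57 (8.73-fold, adjusted p = 0.0619), and 2.49 without growing 2 (adjusted p = 0.0208). FST, follistatin, which binds activin, was at 14.10 to 15.03 in the high and 11.70 in growing 1, 12.08 in growing 2, 10.88 in atretic 2 and 13.11 in atretic 3 in the low group without overlap, a difference of 2.52 ± 0.44 (adjusted p = 0.0561), or 2.63 without growing 2 (adjusted p = 0.0457).

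INHA, the alpha subunit, and INHBA, the beta A subunit, were close to the top of the scale in the high group, at 15.83 to 15.99 and 15.93 to 15.99, with 5 and 6 of 8 channels at the scanner limit. Saturated spots cap their differences of 1.32 and 0.77, and INHA was also at 15.97 in growing 2. Its difference was 1.83 without growing 2 (adjusted p = 0.0229). AMH, which restrains follicle recruitment, was at 10.98 to 12.35 against 9.40 to 11.43 with overlap through growing 2, a difference of 1.65 ± 0.41 (adjusted p = 0.115), or 2.00 without growing 2 (adjusted p = 0.0367). TGFBR3 and SMAD1 had lower means. TGFBR3, the inhibin co-receptor betaglycan, was at 10.27 in growing 3, 9.85 in growing 4, 11.05 in atretic 1 and 12.88 in atretic 4, against 13.42 in growing 1, 12.48 in growing 2, 13.50 in atretic 2 and 13.40 in atretic 3. Only atretic 4 reached the low group. SMAD1, which carries bone morphogenetic protein signals, was at 10.70 to 11.64 against 11.81 to 12.58 without overlap, a difference of -1.14 ± 0.22 (adjusted p = 0.0660). None of the 25 members of the list passed with all follicles, while INHBB, INHA, AMH and FST did without growing 2, and the list's median was 0.21, or 0.05 without it.

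Genes that mark granulosa cells differed by member as well. GJA1, the connexin of the gap junctions between these cells, was at 15.34 in growing 3, 15.36 in growing 4, 14.54 in atretic 1 and 14.14 in atretic 4, against 13.26 in growing 1, 13.59 in growing 2, 13.15 in atretic 2 and 12.72 in atretic 3. The high follicles lay above the low ones in both phases, and the difference was 1.66 ± 0.18 (3.17-fold, adjusted p = 0.0324). CDH2, N-cadherin, was at 11.21 to 12.52 against 13.32 to 14.98 without overlap in the opposite direction, a difference of -2.18 ± 0.41 (adjusted p = 0.0660), or -1.77 without growing 2 (adjusted p = 0.0326). KRT8 differed by -3.11 ± 1.41 with growing 2 and by -1.66 without it, and its groups overlapped. GATA4 differed by 0.06 ± 0.19 (adjusted p = 0.95), and its sign turned under 3 other normalisations.

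The 12 widest differences each way were taken from the 1063 genes without overlap, so that their size and separation describe the choice. LRP8, a lipoprotein receptor, was at 15.96 in growing 3, 15.32 in growing 4, 15.96 in atretic 1 and 15.90 in atretic 4, against 11.98 in growing 1, 12.60 in growing 2, 10.19 in atretic 2 and 13.93 in atretic 3, a difference of 3.61 ± 0.70 (adjusted p = 0.0682). Its high group was close to the top of the scale. CCND2, cyclin D2, which granulosa cells need to enter the cell cycle, was at 14.93 in growing 3, 15.47 in growing 4, 13.98 in atretic 1 and 13.15 in atretic 4, against 11.79 in growing 1, 12.68 in growing 2, 10.05 in atretic 2 and 11.26 in atretic 3. Its difference of 2.94 ± 0.34 was 7.67-fold (adjusted p = 0.0324), with the growing members of the high group above the atretic ones. FLVCR2, a membrane transporter, differed by 2.68 ± 0.29 (adjusted p = 0.0324), PDSS1, of ubiquinone synthesis, by 2.67 ± 0.45 (adjusted p = 0.0494), and LOC503858, of a function not described here, by 2.54 ± 0.21 (adjusted p = 0.0324). For LOC503858 only 4 of 8 channels of the low group were brighter than the negative controls, so that its fitted difference is against a level near background. IDH3A, of the citrate cycle, TMEM20 and TCF19 differed by 2.58, 2.70 and 2.72 without passing.

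Among the genes lower in the high group, MMP11, a matrix metalloproteinase, was at 9.31 in growing 3, 7.997 in growing 4, 10.32 in atretic 1 and 10.63 in atretic 4, against 14.54 in growing 1, 12.96 in growing 2, 14.94 in atretic 2 and 12.91 in atretic 3. The 2 groups lay far apart, with a difference of -4.27 ± 0.60 or 19.3-fold (adjusted p = 0.0417). IL18, an inflammatory cytokine, was at 6.74 in growing 3, 6.76 in growing 4, 7.02 in atretic 1 and 8.24 in atretic 4, with only 2 of 8 channels brighter than the negative controls, and at 11.02 in growing 1, 11.35 in growing 2, 10.89 in atretic 2 and 10.80 in atretic 3. Its low group was tight and its high group at or near background, and the fitted difference was -3.82 ± 0.33 (adjusted p = 0.0324). KDR, the VEGF receptor 2, was likewise brighter than the negative controls on 2 of 8 channels of the high group and on all 8 of the low group, at 6.56 to 7.48 against 10.41 in growing 1, 11.02 in growing 2, 9.54 in atretic 2 and 9.35 in atretic 3 (difference -3.11 ± 0.36, adjusted p = 0.0324).

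SAT1, which breaks down polyamines, and STARD13 differed by -3.02 ± 0.51 (adjusted p = 0.0494) and -3.11 ± 0.48 (adjusted p = 0.0417). SOX4, a transcription factor, was at 8.23 in growing 3, 7.91 in growing 4, 9.69 in atretic 1 and 9.98 in atretic 4, against 14.20 in growing 1, 13.92 in growing 2, 13.38 in atretic 2 and 10.004 in atretic 3. Atretic 3 lay only just above atretic 4, far below the rest of its group, and the difference of -3.92 ± 0.96 did not pass (adjusted p = 0.111). NDP, a ligand of frizzled receptors, PLXDC2, C1QTNF6 and TRIB1, a pseudokinase, differed by -3.35, -3.14, -2.97 and -2.95 without passing. The other TRIB1 probe differed by 0.06, in the opposite direction. For NDP, 5 of 8 channels of the high group were brighter than the negative controls. PLXDC2 was -3.62 without growing 2 (adjusted p = 0.0367).

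**Figure D3:**
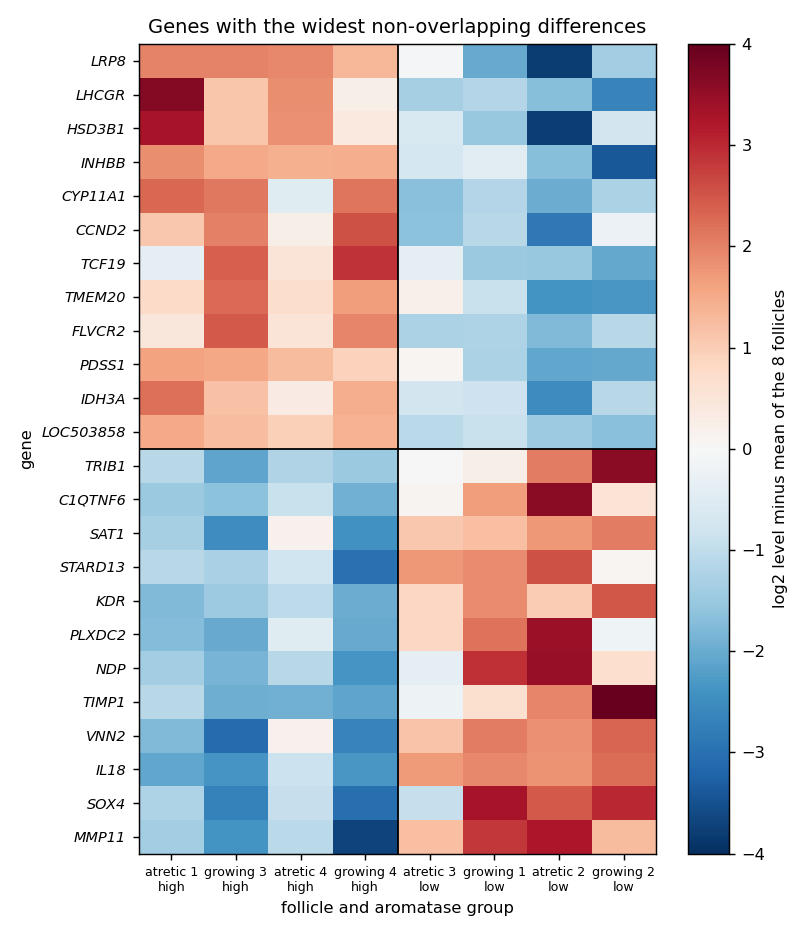
Level of each gene minus its mean over the 8 follicles (colour, log2 units, from -4 in blue to 4 in red) for the 12 genes with the widest higher and the 12 with the widest lower non-overlapping difference, by follicle and aromatase group. The genes were chosen for this split, and the values within a group vary, as for CYP11A1 in atretic 4 and SOX4 in atretic 3.

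Genes that the preovulatory surge of luteinizing hormone switches were looked at next, since LHCGR differed. Of 22 measured, 9 had a higher and 13 a lower mean in the high group, 3 passed downward, beside 0.306% of all genes, and 0 upward, and the median was -0.21, or -0.06 without growing 2. ADAMTS1, a protease of the ovulatory follicle wall, was at 9.53 in growing 3, 8.03 in growing 4, 9.14 in atretic 1 and 9.84 in atretic 4, against 11.78 in growing 1, 11.88 in growing 2, 12.52 in atretic 2 and 11.06 in atretic 3, a difference of -2.67 ± 0.43 (adjusted p = 0.0433). All low follicles lay above all high ones. VNN2, a pantetheinase, was at 7.08 in growing 3, 7.48 in growing 4, 8.38 in atretic 1 and 10.32 in atretic 4, against 12.21 in growing 1, 12.50 in growing 2, 11.98 in atretic 2 and 11.31 in atretic 3, with atretic 4 nearest to the low group, a difference of -3.68 ± 0.63 (adjusted p = 0.0499). RGS2, given above, was the third gene that passed.

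TIMP1, an inhibitor of matrix proteases, was at 8.20 to 9.19 against 10.95 in growing 1, 15.01 in growing 2, 12.25 in atretic 2 and 10.12 in atretic 3. The difference of -3.55 ± 0.93 was -2.51 without growing 2, the highest follicle, and passed then (adjusted p = 0.0466) but not with it (adjusted p = 0.130). NR4A1 and EGR1, immediate early transcription factors, differed by -2.12 ± 0.91 and -1.58 ± 0.62 with overlap. The classical surge genes PTX3 and TNFAIP6 overlapped between the groups. PTX3 was at 7.39 to 8.18 in the high group and at 7.47 to 11.60 in the low group, where growing 2 alone was high, and its difference went from -1.01 to 0.00 without that follicle (adjusted p = 0.997). TNFAIP6 was at 14.27 in growing 3, 13.93 in growing 4, 15.90 in atretic 1 and 12.62 in atretic 4, against 12.28 in growing 1, 15.85 in growing 2, 10.03 in atretic 2 and 10.73 in atretic 3, again with growing 2 at the top of the low group. Its difference was 1.96 ± 1.12 (adjusted p = 0.526), and 3.05 without growing 2 (adjusted p = 0.0975), when the groups no longer overlapped.

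Cell cycle genes had higher means with aromatase, mostly in growing follicles. Of 45 measured genes of mitosis, 42 had a higher mean in the high group, beside 48.4% of all genes, 7 were higher without overlap, beside 4.67%, and 3 passed upward, beside 0.649%, and 0 downward. Their median difference was 1.51, as 2.55 between the growing and 0.47 between the atretic follicles, and as 0.24 in pair 1 and 2.57 in pair 3. The mean level of the list was 10.61 in growing 3 and 10.82 in growing 4, and lay between 7.81 and 8.87 in the 6 other follicles. The list thus stood high in growing 3 and growing 4 alone, and its difference between the phases was not tested.

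PRC1, which bundles microtubules in cytokinesis, was at 14.63 in growing 3, 14.45 in growing 4, 11.69 in atretic 1 and 11.92 in atretic 4, against 10.56 in growing 1, 11.55 in growing 2, 10.03 in atretic 2 and 10.49 in atretic 3. It passed (2.52 ± 0.41, adjusted p = 0.0464), with the atretic members of the high group just above the highest low follicle, growing 2. CCNB1, cyclin B1, was at 13.00 in growing 3, 13.38 in growing 4, 9.43 in atretic 1 and 10.09 in atretic 4, against 8.03 in growing 1, 10.40 in growing 2, 7.68 in atretic 2 and 9.17 in atretic 3. Growing 2 was above both atretic high follicles, and the difference of 2.65 ± 0.71 did not pass. BUB1B and KIF2C, of the spindle checkpoint and of the kinetochore, were the other mitotic genes that passed (2.13 ± 0.31, adjusted p = 0.0417, and 2.35 ± 0.40, adjusted p = 0.0496), at 8.75 and 9.21 for BUB1B and 9.84 and 10.15 for KIF2C in atretic 1 and atretic 4. NUSAP1 and UBE2C, of the spindle and of cyclin destruction, differed by 2.71 ± 0.65 and 2.71 ± 0.66, and BUB1, PTTG1 and CKS2 by 1.86, 2.05 and 2.35, all without passing.

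Of 38 genes of DNA replication, 32 had a higher mean, beside 48.4% of all genes. The median was 0.54, as 1.30 in growing and -0.10 in atretic follicles, and 0.29 over all follicles but growing 2. TK1, thymidine kinase, was at 10.45 in growing 3, 11.27 in growing 4, 9.25 in atretic 1 and 9.52 in atretic 4, against 8.14 in growing 1, 7.41 in growing 2, 7.12 in atretic 2 and 7.88 in atretic 3 without overlap, a difference of 2.48 ± 0.34 (adjusted p = 0.0416). Only 5 of 8 channels of its low group were brighter than the negative controls. RRM2, which makes deoxyribonucleotides, and UHRF1, which keeps DNA methylation, differed by 1.64 ± 0.31 and 1.38 ± 0.35 without overlap and without passing. Besides CCND2, E2F1, a transcription factor of the S phase, differed by 1.23 ± 0.30 without overlap, and MYC was at 7.85 to 10.80 against 8.06 to 12.24 with growing 2 lowest.

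The interaction of phase with aromatase group was tested directly. No probe passed, with 2102 at an unadjusted p under 0.05 (5.92%) and a smallest adjusted p of 0.221. The 5 genes with the smallest p were PIF1, a DNA helicase, AURKB, a mitotic kinase, CENPM, of the centromere, XRCC1, of DNA repair, and RFC2, which loads the replication clamp. AURKB was at 13.24 in growing 3, 13.41 in growing 4, 10.50 in atretic 1 and 10.36 in atretic 4, against 10.60 in growing 1, 10.67 in growing 2, 10.02 in atretic 2 and 10.18 in atretic 3. PIF1 and RFC2 were at 9.68 and 13.23 in growing 3, at 9.88 and 13.43 in growing 4, and no higher than 7.71 and 11.71 in the other 6 follicles. CENPM was at 11.74 and 11.77 in those follicles and at most 9.99 in the others. XRCC1 differed from these, being high in growing 3, growing 4, atretic 2 and atretic 3 at 11.65, 11.74, 11.69 and 11.63. The adjusted p of these genes ranged from 0.221 to 0.237.

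Genes of mitochondrial respiration had higher means with aromatase in both phases. Of 31 measured genes of oxidative phosphorylation, 30 had a higher mean in the high group, beside 48.4% of all genes, 12 did not overlap, all upward, beside 4.67%, and 2 passed, beside 0.649%. The median difference was 0.69, as 0.74 in growing and 0.36 in atretic follicles, as 0.95 in pair 1 and 0.58 in pair 3, and 0.73 without growing 2. The mean level of the list was 13.00 in growing 3, 13.07 in growing 4, 12.94 in atretic 1 and 12.69 in atretic 4, and it was 12.12 in growing 1, 12.46 in growing 2, 12.16 in atretic 2 and 12.41 in atretic 3. The ranges did not overlap.

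UQCRQ, a subunit of complex III, was at 14.95 in growing 3, 15.13 in growing 4, 14.55 in atretic 1 and 14.26 in atretic 4, against 12.94 in growing 1, 13.67 in growing 2, 13.21 in atretic 2 and 13.42 in atretic 3, a difference of 1.41 ± 0.21 (adjusted p = 0.0417). NDUFS1, of complex I, was at 11.67 to 12.07 against 10.82 to 11.10 (difference 0.81 ± 0.13, adjusted p = 0.0464), or 0.77 without growing 2 (adjusted p = 0.0508). NDUFB5, of complex I, and UQCRB, of complex III, differed by 1.22 ± 0.23 and 1.19 ± 0.26 without overlap and without passing (adjusted p = 0.0636 and 0.0831). The 33 cytosolic ribosomal protein genes, by contrast, had a median of 0.01 with 17 higher and 16 lower means and none without overlap. Their median was -0.22 without growing 2.

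**Figure D4:**
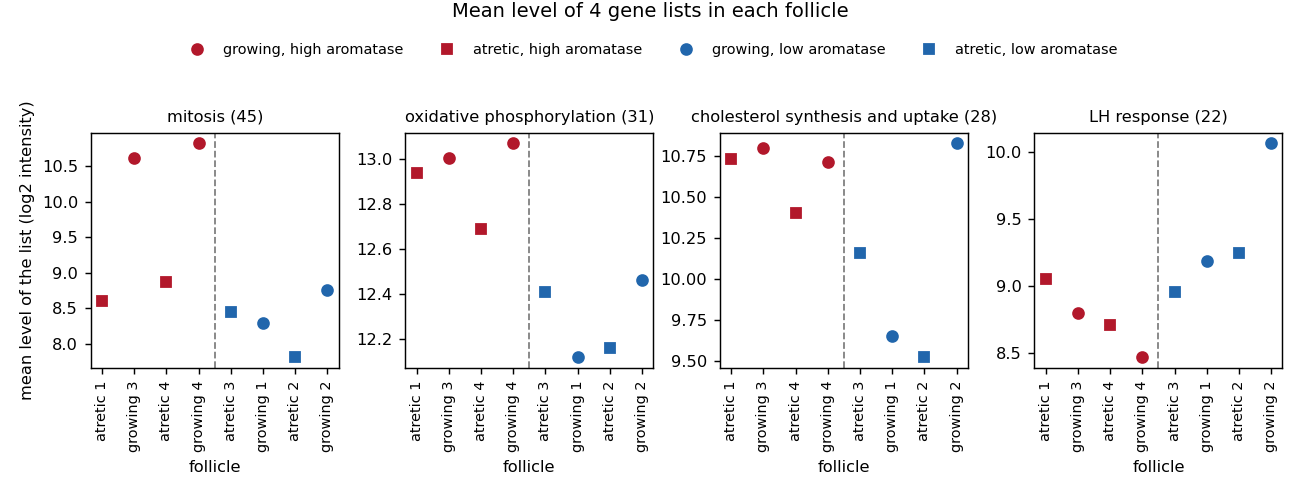
Mean level (log2 intensity, vertical axis) of 4 gene lists in each follicle, ordered by CYP19A1 (horizontal axis, dashed line between the groups), with the number of genes measured in each panel title. The mitosis list is high in growing 3 and growing 4 alone, oxidative phosphorylation is higher in all 4 high follicles, and growing 2 is at the top of the low group for cholesterol synthesis and uptake and for the response to luteinizing hormone.

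Cholesterol synthesis and uptake had a median of 0.51 over 28 genes, or 0.83 without growing 2. Of these 20 had a higher mean and 3 did not overlap, SC4MOL, SQLE and INSIG1, beside 4.67% of all genes, while none passed with all follicles. SC4MOL, a sterol oxidase of the late pathway, was at 13.92 in growing 3, 13.53 in growing 4, 14.39 in atretic 1 and 13.52 in atretic 4, against 11.18 in growing 1, 13.01 in growing 2, 10.62 in atretic 2 and 12.50 in atretic 3, a difference of 2.01 ± 0.53 (adjusted p = 0.129), or 2.45 without growing 2 (adjusted p = 0.0405). SQLE, which makes squalene epoxide, differed by 1.99 ± 0.41 (adjusted p = 0.0748), or 2.29 without growing 2 (adjusted p = 0.0326). CYP51A1, the lanosterol demethylase, was at 13.88 to 14.63 against 12.23 in growing 1, 14.24 in growing 2, 11.03 in atretic 2 and 12.92 in atretic 3. Growing 2 and no other low follicle reached the high group, and the difference of 1.70 ± 0.56 (adjusted p = 0.219) was 2.22 without growing 2 (adjusted p = 0.0496). SCD, which desaturates fatty acids, was at 14.51 to 15.92 against 12.40 to 15.19, again with growing 2 at the top of the low group.

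Several further genes followed the split. IGFBP4, which binds insulin-like growth factors, was at 9.98 in growing 3, 10.12 in growing 4, 9.49 in atretic 1 and 9.70 in atretic 4, against 8.35 in growing 1, 8.40 in growing 2, 7.87 in atretic 2 and 8.64 in atretic 3. It was higher in all high follicles (1.51 ± 0.19, adjusted p = 0.0372). IGFBP5, of the same family, was at 6.67 to 7.32 against 7.44 to 11.09 in the opposite direction, with 2 of 8 channels of the high group brighter than the negative controls and no call (adjusted p = 0.244). IGF2R, the receptor that clears IGF2, differed by -1.75 ± 0.52 with overlap. Of the 14 genes of this system, 7 had a higher and 7 a lower mean.

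Of 26 genes of apoptosis, 17 had a lower and 9 a higher mean in the high group, and GADD45B alone passed. Over all genes, 48.4% had a higher mean and 0.954% passed. GADD45B, a stress-induced growth regulator, was at 15.88 in growing 3, 15.80 in growing 4, 15.95 in atretic 1 and 15.66 in atretic 4, against 14.22 in growing 1, 14.03 in growing 2, 15.09 in atretic 2 and 14.99 in atretic 3, a difference of 1.24 ± 0.21 (adjusted p = 0.0496). All high follicles were above all low ones. Its relative GADD45A was at 7.15 in growing 3, 7.69 in growing 4, 7.95 in atretic 1 and 9.20 in atretic 4, against 12.96 in growing 1, 9.10 in growing 2, 13.21 in atretic 2 and 10.25 in atretic 3. Atretic 4 was slightly above growing 2, which made the groups overlap, and the difference of -3.38 ± 0.91 did not pass (adjusted p = 0.139) but did at -4.11 without growing 2 (adjusted p = 0.0482). In growing 3 GADD45A was near the level of the negative controls. APAF1, of the apoptosome, differed by -1.56 ± 0.32 (adjusted p = 0.0759), or -1.87 without growing 2 (adjusted p = 0.0208), and CYCS, cytochrome c, by 1.64 ± 0.72, both with overlap.

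A set of genes was low in growing 2 as well as in most high follicles. ANGPT2, which loosens vessels, was at 6.83 in growing 3, 7.07 in growing 4, 7.16 in atretic 1 and 10.86 in atretic 4, against 12.36 in growing 1, 7.56 in growing 2, 13.51 in atretic 2 and 12.98 in atretic 3. VNN1, a pantetheinase, was at 10.30 in growing 3, 9.08 in growing 4, 10.20 in atretic 1 and 15.80 in atretic 4, against 15.97 in growing 1, 9.25 in growing 2, 15.95 in atretic 2 and 15.96 in atretic 3. Both genes were high in growing 1, atretic 2, atretic 3 and atretic 4 and low in the rest, so that their split was a different one from that of CYP19A1. In growing 3, growing 4 and atretic 1, ANGPT2 lay at or near the level of the negative controls, which limits its difference. NRP1, a co-receptor of VEGF, ANK3, a membrane adaptor, and PDK4, which slows pyruvate oxidation, were likewise low in growing 2 and high in atretic 4 within their groups, with growing 2 at 11.08, 9.86 and 9.54 and atretic 4 at 15.28, 11.96 and 12.32. Their differences without growing 2 were -4.29 for VNN1, -4.70 for ANGPT2, -2.97 for NRP1, -2.53 for ANK3 and -3.77 for PDK4, against -2.94, -3.62, -2.14, -2.02 and -2.95 with it. None passed with growing 2, and without it ANGPT2 (adjusted p = 0.0357) and PDK4 (adjusted p = 0.0489) did.

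PGF, placental growth factor, and LDHA, lactate dehydrogenase, differed by 2.19 ± 0.44 and 1.90 ± 0.94, and ADM, adrenomedullin, and LAMB1, a laminin chain, by -2.91 ± 0.68 and -2.43 ± 0.43, all with overlap and without passing. ADM was -3.46 without growing 2 (adjusted p = 0.0357) and LAMB1 -2.69 without growing 2 (adjusted p = 0.0316). Of 23 genes of glycolysis and hypoxia, 15 had a higher mean and 1 passed, the glycolytic enzyme ENO1 (1.66 ± 0.28, adjusted p = 0.0494), whose ranges of 11.27 to 13.39 and 9.99 to 11.89 overlapped. Over all genes, 48.4% had a higher mean and 0.649% passed upward. VCAN, the matrix proteoglycan versican, was the one gene of 30 in the matrix list that was higher in all high follicles (11.42 to 11.59 against 8.08 to 10.96, difference 1.84 ± 0.45, adjusted p = 0.113), and it was 2.19 without growing 2 (adjusted p = 0.0433). Of the same 30 genes, 19 had a lower mean, 4 were lower in all high follicles and 1 passed, downward. Over all genes, 4.67% were higher and 3.26% lower without overlap. NFKBIA, the inhibitor of NF-kappa B, was at 11.88 to 13.44 against 13.72 to 14.53 without overlap (adjusted p = 0.0908), while the 28 genes of inflammation and interferon had a median of -0.11 with 23 lower means. A set of genes had been picked for qRT-PCR with these samples in view and is no independent evidence of a direction. Of its 23 members measured on the arrays, PRC1 alone passed, beside 0.954% of all genes, and the median was -0.47. BMP4 and TRIB2 of that set differed by 1.14 ± 0.40 and 1.25 ± 0.63 with overlap, and TRIB2 by 0.50 without growing 2 (adjusted p = 0.319).

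**Figure D5:**
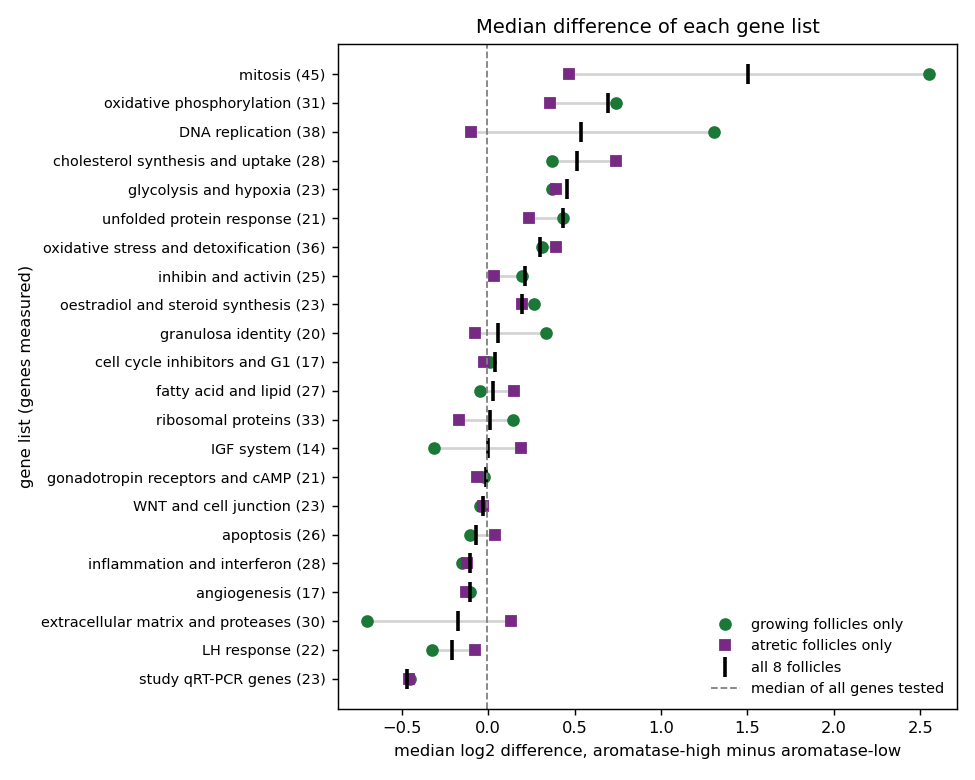
Median log2 difference of the genes of each list, aromatase-high minus aromatase-low (horizontal axis), for all 8 follicles (black tick), the growing follicles (circle) and the atretic follicles (square), with the number of genes measured beside each list (vertical axis). The median of all genes, -0.01, is dashed, the mitosis and DNA replication lists part by phase, and oxidative phosphorylation lies to the right of that line in both phases.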

How the data were processed

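Granulosa cell RNA of 8 bovine follicles, 4 growing and 4 atretic by the labels, was read on 8 dye-swapped 2-colour arrays. The deposited files hold spot intensity values that the authors read with Array-Pro, and a table of log2 ratios that the authors had normalised in FlexArray, which was used only as a check. It correlated at 0.9986 to 0.9999 with the ratios rebuilt here. Intensities were corrected with normexp (offset 50), normalised by loess within arrays with control spots at weight 0 and by quantiles over single channels, and averaged over each follicle's 2 arrays. Median signal over background was 4.10 to 5.45 for Cy5 and 8.97 to 13.6 for Cy3, and 8 arrays limit the precision. Probes whose log2 intensity averaged 7 or more over the follicles were fitted in limma 3.58.1 (R 4.3.3) with aromatase group and phase, and p-values were adjusted by Benjamini-Hochberg over all probes. The fit was tested on simulated data.

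The arrays of a pair were matched by their position on the slide, and the array on its own slide was taken as the partner in pair 4. Follicles of a pair share arrays, whether they share an animal was not given, and their residuals correlated at 0.0786, -0.204, 0.253 and -0.204, so no pair block was used in the main test. Each gene was represented by its brightest probe. Named were the 12 widest non-overlapping differences each way, members of the steroid, gonadotropin, inhibin, identity and luteinizing hormone lists, the widest of other lists, the qRT-PCR genes and the 5 smallest interaction p-values. BUB1B, KIF2C, NDUFS1, GADD45B, ENO1, VCAN and INSIG1 and some further members of other lists were added after their values were seen. The groups, the lists and the tests were chosen with earlier results of these data known. Alternatives changed the background correction, the normalisation, the filter, the design, the grouping, the prior and the follicles used.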

Additional observations from a re-analysis of the deposited data

Results flagged for a closer look

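In 22 of 238 groups of 4 follicles examined, 1 follicle lay far from the other 3 against their range. The cut-off flags about 1 in 20 groups when values are normal and independent. These groups share the same 8 follicles, lists overlap with genes, and many genes were chosen for wide differences. The number of flags can therefore not be set against that rate. Growing 2 was that follicle in 13 cases and atretic 4 in 8.

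Among the aromatase-low follicles, growing 2 stood far from the others for TGFBR3 at 12.48 (others 13.4 to 13.5), PTX3 at 11.6 (others 7.473 to 8.065) and MYC at 8.062 (others 11.57 to 12.23). It also stood apart for LAMB1 at 9.508 (others 11.37 to 11.49), VNN1 at 9.248 (others 15.95 to 15.96), NRP1 at 11.08 (others 15.16 to 15.62), ANK3 at 9.86 (others 12.59 to 13.11) and CENPM at 9.991 (others 9.712 to 9.738). The VNN1 values of the other low follicles were close to the top of the scale. Growing 2 also differed in list means. The mean level in growing 2 was lower than in the others for the inhibin and activin list at 10.57 (others 11.01 to 11.06) and the ribosomal protein list at 13.81 (others 14.74 to 14.85). It was higher for the unfolded protein response at 10.92 (others 10.19 to 10.27), for WNT and cell junction genes at 9.886 (others 9.161 to 9.282) and for fatty acid and lipid genes at 10.59 (others 9.652 to 9.772).

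Among the aromatase-high follicles, atretic 4 had a lower level than the others of CYP11A1 at 12.56 (others 15.16 to 15.34), INHA at 15.83 (others 15.97 to 15.99), SCD at 14.51 (others 15.8 to 15.92) and LDHA at 12.34 (others 15.4 to 15.93). It had a higher level of APAF1 at 8.995 (others 8.097 to 8.241), ANGPT2 at 10.86 (others 6.827 to 7.158) and ADM at 8.982 (others 7.215 to 7.481), and a higher mean of the angiogenesis list at 9.181 (others 8.794 to 8.803). Growing 4 had a lower level of LRP8 at 15.32 (others 15.9 to 15.96). INHA, SCD, LDHA and LRP8 had values close to the top of the scale in this group, where even a small gap can be flagged. For INHA part of the channels were at the scanner limit.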

How the results depend on the processing

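The number of probes past the threshold was 291 and moved by more than 1.5 times under many settings. It was 187 with plain subtraction, 113 with no background correction, 131 with loess alone, 114 with median-centred channels and 533 with a minimum of 8 on the log2 scale. It was 159 without phase, 164 with an intensity trend and 0 for the 3 highest against the 3 lowest follicles. With the CYP19A1 level tested in place of the high and low groups it was 119. With the pair as a fixed block it was 0, and with it as a random block 262. Leaving out 1 follicle at a time gave 0 to 811. The genes whose groups do not overlap numbered 2194 for 3 against 3 follicles, and 1353 to 2086 with 1 follicle left out, as fewer follicles overlap less. Members of the lists that were apart by at least 1.5-fold numbered 63, and 65 to 140 with 1 follicle left out, the highest without growing 2. No probe passed for phase or for the interaction under the alternatives run, by limma, with 2101 to 3401 and 2309 at an unadjusted p under 0.05.

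Signs turned for genes with differences near 0 or resting on 1 follicle. GATA4 was at -0.072 with loess alone, -0.065 with Aquantile, -0.019 for 3 against 3 and -0.018 with quantiles without control spots, a setting chosen after seeing the data, and between -0.048 and 0.23 with 1 follicle left out. XRCC1 was at -0.021 with loess alone, -0.092 and -0.01022 with the fixed and the random pair block, -0.032 for 3 against 3, and between -0.27 and 0.25 with 1 follicle left out. PTX3 was at 0.39 with the fixed pair block and between -1.65 and 0.0039 with 1 follicle left out, the highest without growing 2. CYP17A1 lay between -0.12 and 0.86 with 1 follicle left out, the lowest without atretic 1, and the median of the qRT-PCR list was 0.059 with the minimum of 8. The cause of these changes was not tested. Over the genes named and the settings other than leaving out a follicle, 1314 of 1550 values kept direction and side of the threshold. Of the rest, 181 lost and 46 gained the call, and 9 reversed. Most of the named genes did not pass in the main fit and had no call to lose. The mean over all probes of a gene was judged by direction alone. With 1 follicle left out, 586 of 776 values were kept, 149 lost and 32 gained the call, and 9 reversed. Both other CYP19A1 probes gave the same groups, so that no value for other groups was run. Low signal over background limits genes such as IL18, KDR and IGFBP5 in the high group and LOC503858 and TK1 in the low group.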

Other observations

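Families of genes that were not among the lists, chosen after their values were seen, moved in the direction of oxidative phosphorylation. Of 47 genes of the proteasome, which degrades tagged proteins, 40 had a higher mean in the aromatase-high follicles, 19 were higher and 1 was lower without overlap, and 5 passed upward, with a median of 0.63. Of 75 mitochondrial ribosomal protein genes, 70 had a higher mean, 16 did not overlap and 4 passed, with a median of 0.43. Of 21 genes of the mitochondrial import translocases, 17 had a higher mean, 5 did not overlap and 1 passed, with a median of 0.52. The medians were 0.82 and 0.56 for the proteasome, 0.64 and 0.34 for the mitochondrial ribosome and 0.36 and 0.57 for the translocases in growing and in atretic follicles, beside -0.01 over all genes. Over all genes, 4.67% were higher and 3.26% lower without overlap, 0.649% passed upward and 48.4% had a higher mean.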
